A study of Rattus norvegicus with 34 samples.

Results

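Cyp2a1, Cyp2a2 and Cyp2d4 are 3 cytochrome P450 genes of rat liver, followed here through old age in F344 and Brown Norway males and after a dose of the solvent toluene. They were chosen by symbol, with earlier results of these data known. Probe sets annotated to each gene alone were taken, and per gene the one with the highest mean signal in the strain was used. In both strains these were 1387511_at for Cyp2a1, 1369424_at for Cyp2a2 and 1370329_at for Cyp2d4. They are 3 of 11943 genes measured in F344 and of 11984 in Brown Norway rats. All 3 passed the filter on low signals, under which 9206 genes were tested in F344 and 8584 in Brown Norway rats. A further probe set, 1387913_at, is annotated to Cyp2d4 alone, and 1369275_s_at is annotated to both Cyp2a2 and Cyp2a1.

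The liver RNA of 34 male rats was hybridised, 1 array per animal, to Affymetrix rat genome arrays. F344 rats, 4 per age, were taken at 6, 11, 18 and 24 months without treatment, a week after leaving their supplier. Brown Norway rats of 4, 12 and 24 months were housed singly. At each age, 3 received toluene at 1 g/kg by gavage in corn oil and were killed 4 h later, and 3 were controls whose labels give no treatment, so corn oil and toluene cannot be told apart. The study asked how genes of xenobiotic metabolism change as male rats age. The labels name no engineered allele in either strain.

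Cytochrome P450s are haem enzymes of the endoplasmic reticulum that oxidise steroids, drugs and solvents with electrons passed on by P450 reductase. In rats several of them differ between the sexes, because males release growth hormone in pulses and females release it more steadily. Cyp2a2 encodes a testosterone hydroxylase of adult male liver. Its neighbour Cyp2a1 encodes a testosterone hydroxylase that is more abundant in adult females, and Cyp2d4 is a member of the drug-metabolising Cyp2d family that is also known from rat brain.

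In the RefSeq assembly GRCr8, Cyp2a1 lies on chromosome 1 between Cyp2a3 and Cyp2a2, and Cyp2d4 lies on chromosome 7 between Ndufa6 and Cyp2d5. The windows below run from 250 bases before the annotated start of transcription to 50 after it, with the start at base 251. Those of Cyp2a1 and Cyp2d4 are shown because, of the genes followed here, only these had a window. That of Cyp2a3 is shown because this near relative gave no signal above background. Capitals mark the motifs found, which were searched on both strands: the TATA box (TATAAA), the GC box (GGGCGG), a C/EBP element (TTGCNNAA), a STAT5 element (TTCNNNGAA) and the D-box (TTATGTAA).
Cyp2a1: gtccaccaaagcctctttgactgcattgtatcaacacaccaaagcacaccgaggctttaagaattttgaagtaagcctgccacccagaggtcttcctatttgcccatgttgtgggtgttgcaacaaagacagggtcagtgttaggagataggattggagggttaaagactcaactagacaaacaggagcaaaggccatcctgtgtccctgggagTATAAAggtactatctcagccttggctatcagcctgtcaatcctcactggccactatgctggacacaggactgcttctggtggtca
Cyp2a3: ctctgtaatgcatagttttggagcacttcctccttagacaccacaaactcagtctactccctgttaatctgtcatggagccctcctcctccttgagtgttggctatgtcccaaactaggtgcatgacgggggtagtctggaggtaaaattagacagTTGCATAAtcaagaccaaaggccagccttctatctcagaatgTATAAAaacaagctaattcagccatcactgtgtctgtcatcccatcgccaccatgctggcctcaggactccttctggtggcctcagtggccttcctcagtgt
Cyp2d4: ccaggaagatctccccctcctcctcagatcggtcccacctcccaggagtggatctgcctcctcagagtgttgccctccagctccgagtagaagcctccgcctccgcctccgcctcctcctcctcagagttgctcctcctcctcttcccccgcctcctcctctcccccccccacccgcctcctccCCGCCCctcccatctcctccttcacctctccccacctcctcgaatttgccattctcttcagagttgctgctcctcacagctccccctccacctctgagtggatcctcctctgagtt

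The Cyp2a1 window (GRCr8 chr1:91359028-91359327, plus strand) holds TATAAA at bases 215 to 220. The Cyp2a3 window (chr1:91299334-91299633, plus strand) holds TATAAA at bases 199 to 204 and TTGCATAA at bases 157 to 164. The Cyp2d4 window (chr7:115771772-115772071, minus strand) holds the GC box at bases 185 to 190, on the strand opposite to the gene. Of 33469 RefSeq rat promoter windows of the same length, 14.2% hold TATAAA, 33.1% the GC box, 10.6% the C/EBP letters, 8.87% the STAT5 letters and 0.893% the D-box, counting both strands. The STAT5 and D-box letters do not occur in these 3 windows, and overlaps between motifs did not arise. The Cyp2d4 window is 64% G or C against 48.7% for Cyp2a1, and 74.3% of its bases are C or T, a share that 0.0807% of all windows reach. Aligned end to end, Cyp2a1 and Cyp2a3 are identical over 54.8% of alignment columns and Cyp2d4 and Cyp2d3 over 43.8%, while Cyp2d3 and Cyp2d1 share 88.2%. Of the 3 genes followed here, 2 had a window, and Cyp2a2 had none.

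All values below are linear probe set signals as deposited, in arbitrary units, and fold changes are from log2 of the signal floored at 32. F344 arrays had median signals of 44.9 to 47.1 and Brown Norway arrays of 35.6 to 38.3, so levels were set side by side within a strain alone. The 3'/5' ratio of the GAPDH control probe sets, which rises as RNA degrades, lay at 1.31 to 7.33 on F344 arrays and at 0.774 to 0.944 on Brown Norway arrays. In F344 rats 5 of 16 arrays lay above 2.5 and none of these was from a 24-month rat. Hepatocyte markers were present in force: the summed signal of 7 measured markers of 8 listed was 47047 to 50220 in F344 rats of 24 months and 47470 to 49237 in those of 6 months. Macrophage markers were higher with age, with a sum over 8 of 10 listed of 4595 to 6902 at 24 months and 2805 to 3960 at 6 months. Precision is limited by the 3 or 4 arrays per group.

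In F344 rats of 24 months, the male enzyme gene Cyp2a2 was 17.7-fold lower than in rats of 6 months. Cyp2d4 was 2.16-fold lower and Cyp2a1 was 1.81-fold higher. All 3 passed the test, in a comparison where 7.4% of genes tested did, and for none of them did the groups overlap. The 3 genes were chosen with earlier results of these data known, so this count is not a test of them as a set. The share of all genes whose groups did not overlap was not taken. In liver as a whole, fewer cells expressing a gene and less RNA per cell cannot be told apart.

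Cyp2a2 had signals of 3851, 3791, 3588 and 3569 in F344 rats of 6 months, and of 4178, 3018, 2810 and 2854 at 11 months. At 18 months they were 2815, 2567, 1872 and 3502, and at 24 months 328, 62.0, 776 and 120. Every rat of 24 months lay below every younger rat, and the highest of the old rats was under the lowest of the 18-month rats. The means were 3700 ± 143, 3215 ± 648, 2689 ± 673 and 322 ± 324 at 6, 11, 18 and 24 months (SD, n = 4 each). Against 6 months the log2 fold change at 24 months was -4.15 (SE 0.51, 95% interval -5.23 to -3.06, limma with Benjamini-Hochberg adjusted p = 0.000124). In an exact permutation test of these 8 rats, p was 0.0286, two-sided, the smallest that 70 splits allow.

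Most of the fall of Cyp2a2 came between 18 and 24 months as far as these ages resolve it. It was 12.6-fold lower at 24 than at 18 months (log2 fold change -3.65, SE 0.51, adjusted p = 0.000729), in a comparison where 1.76% of genes passed. At 24 against 11 months it was -3.92 on the log2 scale (adjusted p = 0.000287, 4.92% of genes passing). Between the younger ages no change passed: -0.50 at 18 against 6 months (adjusted p = 0.800, 1.08% of genes), -0.27 at 18 against 11 (adjusted p = 0.917, 0.293%) and -0.22 at 11 against 6 (adjusted p = 1, 0% of genes by limma, with 357 at an unadjusted p under 0.05), although no 18-month rat reached the lowest rat of 6 months. In an exact permutation test of 18 against 6 months p was 0.0286, two-sided, the smallest possible. The limma fit used a common spread for all ages, and the spread was widest at 24 months. The log2 SD was 1.60 there, against 0.056 at 6 and 0.37 at 18 months, so a smaller early fall may be missed. The difference of 24 from 18 months had an adjusted p of 0.0539 in a fit of those groups alone.

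Cyp2d4 had signals of 318, 286, 304 and 336 at 6 months and of 523, 361, 331 and 296 at 11 months. It had 294, 188, 194 and 334 at 18 months, against 147, 121, 206 and 116 at 24 months. The 24-month rats lay below all rats of 6 and 11 months and overlapped those of 18 months through 1 rat, at 206. Means were 311 ± 21.3, 378 ± 100, 253 ± 72.9 and 148 ± 41.5 at 6, 11, 18 and 24 months (SD, n = 4 each).

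At 24 against 6 months the log2 fold change of Cyp2d4 was -1.11 (SE 0.22, 95% interval -1.57 to -0.65, adjusted p = 0.00514), and against 11 months -1.36 (SE 0.22, adjusted p = 0.00177). At 24 against 18 months it was -0.77 (adjusted p = 0.0984), and at 18 against 6 months -0.34 (adjusted p = 0.608), so neither step on its own passed. Without the third 24-month rat, the value against 18 months was -0.94 and passed (adjusted p = 0.0274). The second Cyp2d4 probe set, 1387913_at, gave 38.9 ± 7.22 at 24 months and 90.2 ± 17.1 at 6 months (SD, n = 4 each), a log2 fold change of -1.18 (adjusted p = 0.000797) with 3 of 4 old rats above the floor. The pair of Cyp2d4 probe sets had r = 0.91 over the 16 F344 arrays, which they share.

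Cyp2a1 went the other way. Its signals were 1317, 2021, 1826 and 2126 at 6 months, 1061, 1672, 1842 and 2388 at 11, and 2663, 2590, 2558 and 1566 at 18 months. At 24 months they were 2910, 3411, 2968 and 3794, and every 24-month rat lay above every younger one. Means were 1822 ± 359, 1741 ± 547, 2344 ± 521 and 3271 ± 415 at 6, 11, 18 and 24 months (SD, n = 4 each). The log2 fold change at 24 against 6 months was 0.86 (SE 0.23, 95% interval 0.38 to 1.34, adjusted p = 0.0299), and at 24 against 11 months 0.96 (SE 0.23, adjusted p = 0.0237). At 24 against 18 months it was 0.50 (SE 0.23, adjusted p = 0.385) although the groups did not overlap, and at 18 against 6 months 0.35 (adjusted p = 0.613).

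**Figure D1:**
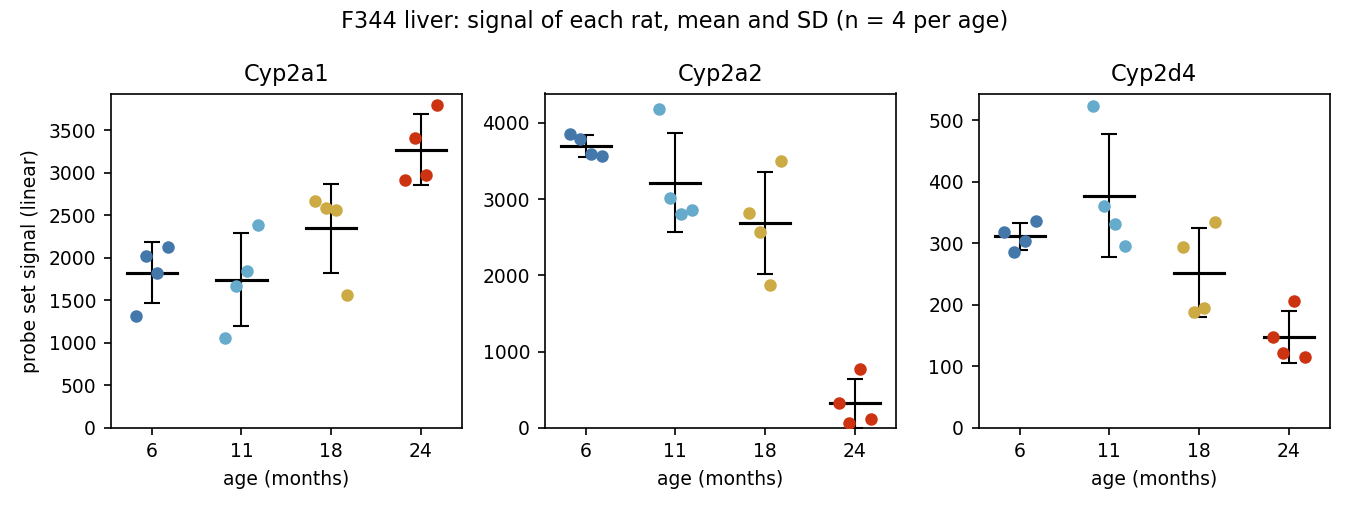
Linear probe set signal of Cyp2a1, Cyp2a2 and Cyp2d4 (y axis, arbitrary units) in each F344 rat at 6, 11, 18 and 24 months (x axis), 1 point per rat, with the mean and SD of 4 rats. The 24-month rats lie above all others for Cyp2a1 and below all others for Cyp2a2, where they span 62.0 to 776.

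Of the 3 changes, the Cyp2a1 increase depended most on single arrays. Leaving out rat 1, 2 or 4 of 24 months or rat 1 or 3 of 6 months put its adjusted p between 0.0561 and 0.0964, with log2 fold changes of 0.71 to 0.91. Against 11 months the call was lost without rat 2 or 4 of 24 months or rat 1 of 11 months (adjusted p up to 0.0822), with no filter (0.0582) and in those groups alone (0.0555). Its signal also moved with RNA quality within an age: per doubling of the GAPDH ratio it changed by -0.41 on the log2 scale (SE 0.064, adjusted p = 0.000412), where 25.3% of genes had a slope that passed. The lowest Cyp2a1 array at 6, 11 and 18 months was in each case the one with the highest GAPDH ratio, at 4.35, 7.33 and 5.31. With the ratio as a covariate the difference of 24 from 6 months was 0.65 (adjusted p = 0.00428), and without the 5 arrays above 2.5 it was also 0.65 (adjusted p = 0.0268). Cyp2d4 had a slope of the opposite sign, 0.30 (SE 0.090, adjusted p = 0.0244), and its difference of 24 from 6 months was -0.96 with the covariate and -1.11 without those arrays. For Cyp2a2 the slope was 0.31 (SE 0.27, adjusted p = 0.433), and the difference was -3.99 with the covariate and -4.14 without those arrays.

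**Figure D2:**
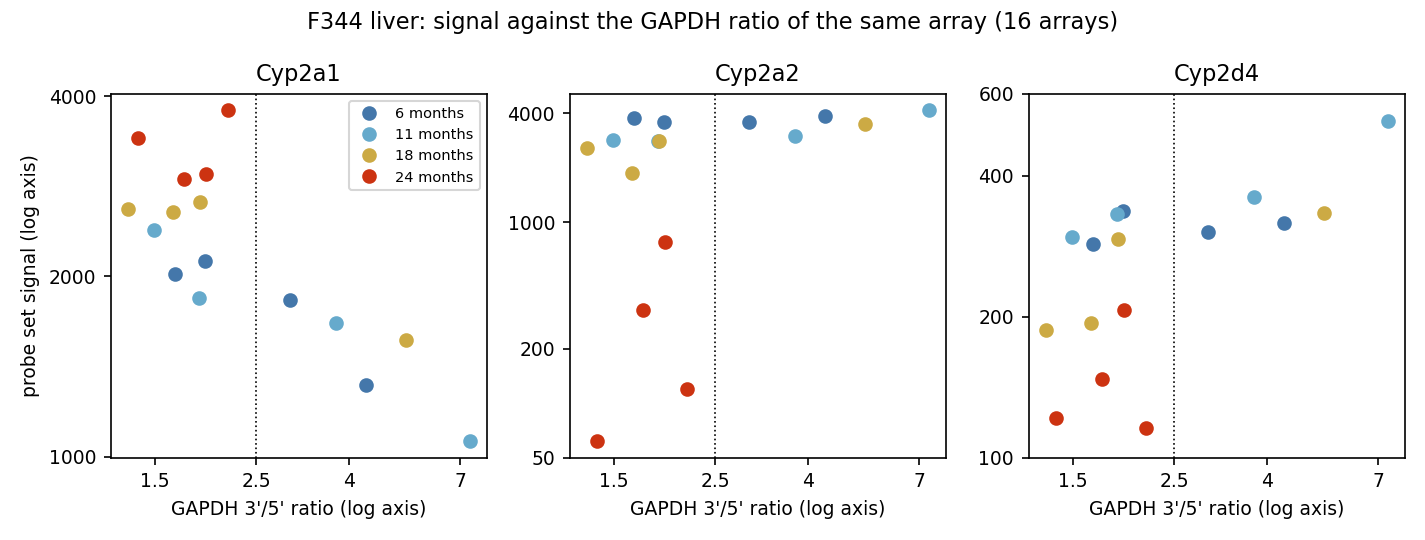
Signal of Cyp2a1, Cyp2a2 and Cyp2d4 (y axis, log scale) against the GAPDH 3'/5' ratio of the same array (x axis, log scale) for 16 F344 rats coloured by age, with a dotted line at 2.5. Cyp2a1 is lowest at the highest ratio within each of the younger ages, while the 24-month arrays, with ratios of 1.38 to 2.17, stand above younger arrays of similar ratio for Cyp2a1 and below them for Cyp2a2.

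The order of mean signal over age in F344 rats was 6, 11, 18 and 24 months from high to low for Cyp2a2, and of the neighbouring ages only 24 and 18 months differed past the test. For Cyp2d4 the order was 11, 6, 18 and 24 months, and no pair of neighbours passed. For Cyp2a1 it was 24, 18, 6 and 11 months, and again no pair of neighbours passed. Over the 16 arrays, Cyp2a2 and Cyp2d4 had r = 0.88, Cyp2a1 and Cyp2d4 r = -0.89, and Cyp2a1 and Cyp2a2 r = -0.75, values that carry the ages and the arrays' RNA quality along with the genes.

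The probe set annotated to both Cyp2a genes, 1369275_s_at, had 3579 ± 164 at 24 months and 3078 ± 778 at 6 months (SD, n = 4 each), with no fall like that of the Cyp2a2 probe set. Over the F344 arrays it had r = 0.83 with Cyp2a1 and -0.39 with Cyp2a2, and over the 18 Brown Norway arrays r = 0.63 with Cyp2a1 and 0.93 with Cyp2a2. In F344 rats it was lowest at 6, 11 and 18 months, at 2177, 1353 and 1551, on the arrays of highest GAPDH ratio, as was Cyp2a1. At 6 months the arrays with ratios of 1.66 and 1.93 had 3743 and 3712. The F344 r values therefore carry RNA quality too. Cyp2a1 and Cyp2a2 are close copies, so the split of signal between them is uncertain. The signals of the probe sets annotated to each alone moved in opposite directions in F344 rats.

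Among the F344 rats of 24 months the loss of Cyp2a2 was uneven. The third rat kept the most, at 776, followed by the first at 328, the fourth at 120 and the second at 62.0, a spread of 3.65 on the log2 scale against 0.11 among rats of 6 months. The third rat was also highest of these 4 for Cyp2d4, at 206. Of the 10 tested male-dominant genes, 6 were highest in the third, 3 in the first and 1 in the second of these rats, and 8 were lowest in the fourth. Cyp2c13, a male P450 of the Cyp2c family, had 2842 in the third rat, against 1485 in the first, whereas Cyp2c11, the main male P450, had 387 in the third and 548 in the first. Hao2, a hydroxyacid oxidase gene, was lowest in the third rat, at 208. Of the 10 tested female-dominant genes, 9 were highest in the fourth rat and 6 were lowest in the third. The share of all genes highest or lowest in each rat was not taken. The fourth rat's array had the highest GAPDH ratio of these 4, at 2.17, and the lowest median signal, at 45.5. For Cyp2a1, the second and the fourth rat had 3411 and 3794, while the first and the third had 2910 and 2968.

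**Figure D3:**
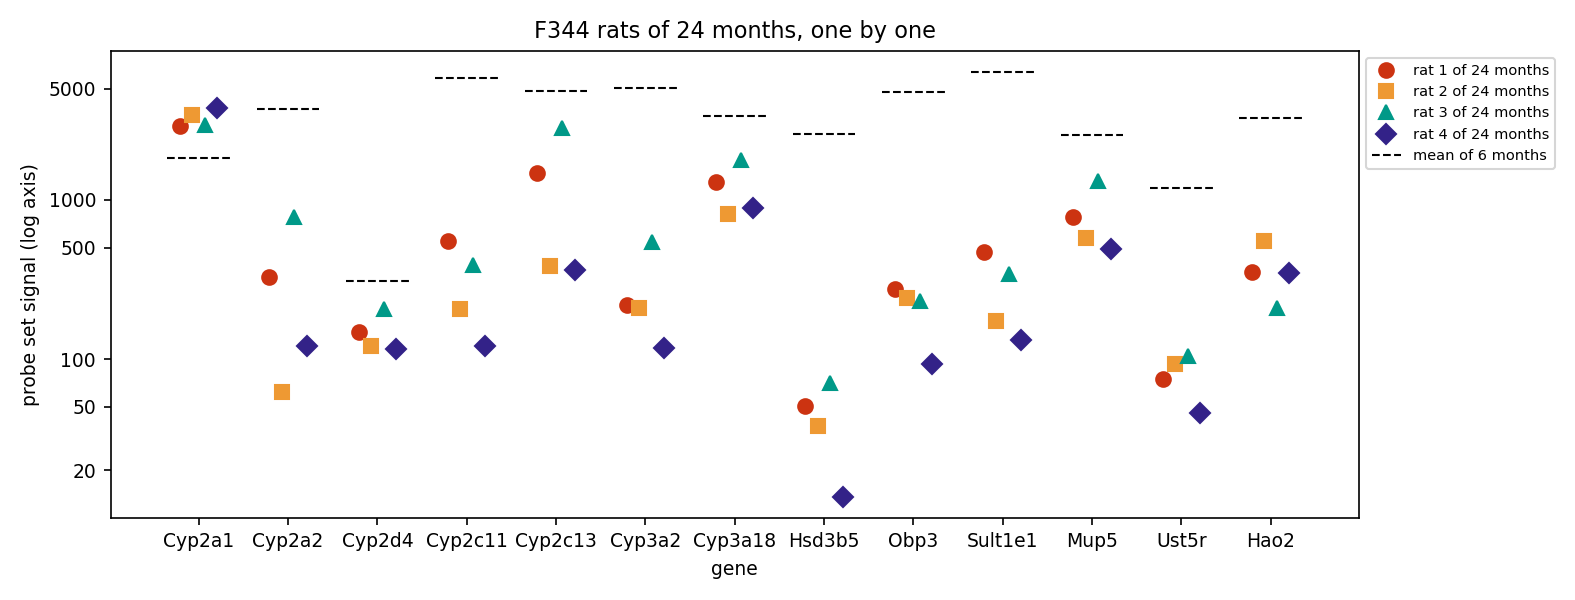
Probe set signal (y axis, log scale) of Cyp2a1, Cyp2a2, Cyp2d4 and the 10 tested male-dominant genes (x axis) in the 4 F344 rats of 24 months, 1 symbol per rat, with the mean of the 6-month rats as a dashed line. The third rat (triangle) is highest for Cyp2a2, Cyp2d4 and 6 of the 10 other genes but lowest for Hao2, and all 4 rats lie above the dashed line for Cyp2a1 alone.

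Of the 5 listed near relatives of these genes, 2 were tested. Cyp2d3 was 1.46-fold lower at 24 than at 6 months in F344 rats (log2 fold change -0.54, SE 0.097, adjusted p = 0.00255), with signals of 3011 ± 254 against 4382 ± 141 (SD, n = 4 each). Cyp2d2, a major Cyp2d of rat liver, had a log2 fold change of -0.32 (SE 0.11, adjusted p = 0.0890), with 4185 ± 488 at 24 and 5217 ± 562 at 6 months. Cyp2d1 and Cyp2d5 share the probe set 1370377_at, which was not tested and had 2067 ± 346 at 24 and 2588 ± 167 at 6 months. Cyp2a3, known as an enzyme of the airways, lay below the floor of 32 on every array. Cyp2d4 thus fell alongside Cyp2d3, and the difference between their fold changes was not tested.

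Of 30 other Cyp2 family genes listed, 14 were tested, and at 24 against 6 months 1 was higher and 4 were lower, with a median log2 fold change of -0.03 against -0.01 over all genes. By the same test, 4.43% of all genes tested were higher and 2.97% were lower. Cyp2c11 fell 21.7-fold (adjusted p = 1.85e-07) and Cyp2c13 fell 5.47-fold (adjusted p = 0.00352). Cyp2u1, a fatty acid hydroxylase, fell 1.92-fold (adjusted p = 0.00350), and Cyp2c12 rose 19.7-fold (adjusted p = 0.000206). Cyp2a2 therefore had a change of a size that the listed genes reached at Cyp2c11 and Cyp2c12, and Cyp2e1, an ethanol and solvent oxidiser, had a log2 fold change of 0.03 (adjusted p = 0.928).

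**Figure D4:**
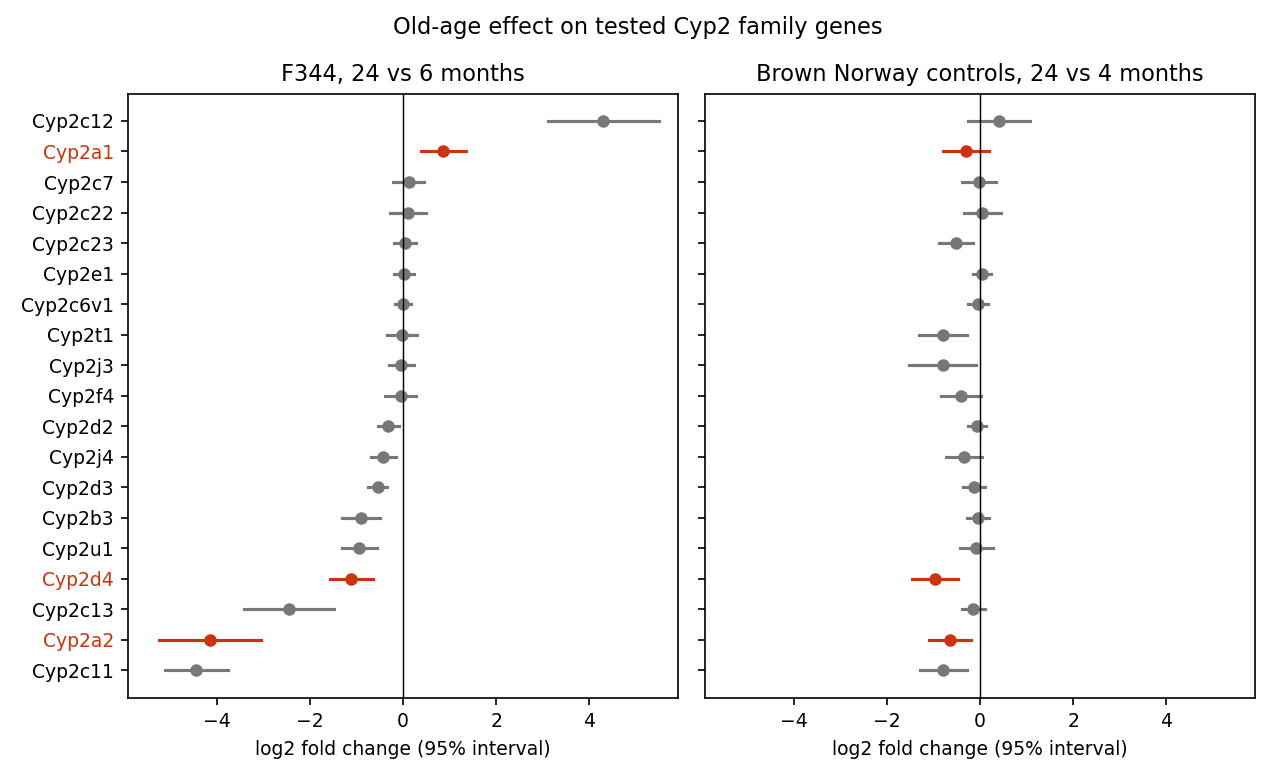
Log2 fold change in old age (x axis, points with 95% intervals) for the tested Cyp2 family genes (rows), in F344 rats of 24 against 6 months on the left and Brown Norway controls of 24 against 4 months on the right; Cyp2a1, Cyp2a2 and Cyp2d4 are in red. Cyp2a2 stands at -4.15 in F344 and -0.64 in Brown Norway rats, Cyp2d4 at -1.11 and -0.97, and Cyp2a1 at 0.86 and -0.31.

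Genes of known sex bias also changed in these rats. All 10 tested of 12 male-dominant genes passed as lower at 24 than at 6 months, with a median of -4.19. Of all genes tested, 2.97% passed as lower and 4.43% as higher. Examples are the steroid dehydrogenase Hsd3b5, at least 56.1-fold lower (adjusted p = 5.82e-09, 1 of 4 old rats below the floor), and the estrogen sulfotransferase Sult1e1, 25.8-fold lower (adjusted p = 6.25e-08). Of 11 female-dominant genes 10 were tested, 7 were higher and 1 was lower, with a median of 3.02. The lower gene was Fmo1, at -1.16 on the log2 scale, and Cyp2c7 and Cyp3a9 did not pass. Among the higher genes was Akr1b7, an aldo-keto reductase, at least 65.0-fold higher (adjusted p = 3.03e-08), since all 4 rats of 6 months lay below the floor. Genes below the floor enter these medians at that bound. Sult2a2, A1bg and Cux2 passed the filter on low signals only through the 24-month rats. They could come out only as higher, and the count and median of female-dominant genes include them. Cyp2a2 was lower with the male-dominant genes and Cyp2a1 higher with 7 of the 10 tested female-dominant ones. These lists were drawn up with earlier results of these data known.

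Regulators and partners of P450s are set here beside the 7.4% of all genes that passed. Of 28 listed regulators 22 were tested, and 2 rose: Trim24, a transcriptional cofactor, by 3.93 on the log2 scale (adjusted p = 9.52e-08) and Cux2, a repressor of male genes in female liver, at least 4.32-fold (adjusted p = 1.07e-07), with all 4 rats of 6 months below the floor. Cux2 passed the filter on low signals only through the 24-month rats, so it could come out only as higher. The xenobiotic receptor Nr1i3 had -1.35 (adjusted p = 0.117), and Stat5b, which relays growth hormone pulses, had -0.49 (adjusted p = 0.135), with 3 and 2 of the 4 old rats above the floor. Among 14 tested of 15 redox and haem genes, the haem-degrading Hmox1 rose by 1.07 (adjusted p = 0.0110) and the haem-binding Pgrmc1 fell by 0.33 (adjusted p = 0.0488). That count of 2 was 1 when any of 6 arrays was left out and 0 without the arrays of GAPDH ratio above 2.5. P450 reductase, Por, had 0.17 (adjusted p = 0.747). Of 13 tested of 20 other steroid-metabolising enzymes, 6 fell and 0 rose, with a median of -0.34, and Cyp3a2, a male testosterone hydroxylase, was 21.4-fold lower (adjusted p = 1.07e-07).

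None of the 7 tested hepatocyte markers passed at 24 against 6 months, 0 had an unadjusted p under 0.05, and their median log2 fold change was 0.00. In that comparison 7.4% of the 9206 genes tested passed, and 1881 had an unadjusted p under 0.05. Of 8 tested macrophage markers 4 were higher, with a median of 0.74, in a comparison where 4.43% of all genes tested passed as higher. Lymphocyte and plasma cell markers had 2 of 4 higher (median 1.02), cholangiocyte markers 1 of 3 (0.96), stellate cell and fibroblast markers 1 of 6 (0.38) and endothelial markers 0 of 5 (0.06, none at an unadjusted p under 0.05). At 24 against 18 months, where Cyp2a2 was 12.6-fold lower and 1.76% of all genes passed, 0 of 8 macrophage markers passed, 0 had an unadjusted p under 0.05, and their median was 0.09. Of the 9206 genes tested, 1098 had such a p there. None of the other cell type markers passed there either, 1 of them, for lymphocytes and plasma cells, having an unadjusted p under 0.05. The part of these cells in the values was not tested.

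In Brown Norway controls, no change of the 3 genes with age passed the test. Cyp2d4 had the largest, 1.96-fold lower at 24 than at 4 months (log2 fold change -0.97, SE 0.23, 95% interval -1.46 to -0.48, adjusted p = 0.0881), where 0.245% of genes passed. Cyp2a2 was 1.56-fold lower (log2 fold change -0.64, SE 0.21, 95% interval -1.10 to -0.19, adjusted p = 0.221). Cyp2a1 had -0.31 (SE 0.23, 95% interval -0.80 to 0.19, adjusted p = 0.699).

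Cyp2d4 had signals of 270, 236 and 243 in Brown Norway controls of 4 months, of 223, 314 and 393 at 12 months and of 121, 158 and 108 at 24 months. Every control of 24 months lay below every younger control, and the share of all genes that separated so was not taken. Means were 250 ± 17.9, 310 ± 85.2 and 129 ± 26.0 at 4, 12 and 24 months (SD, n = 3 each), and at 24 against 12 months the log2 fold change was -1.25 (SE 0.23, adjusted p = 0.0741, 0.0233% of genes passing). Without the second control of 24 months, at 158, both differences passed, at -1.13 against 4 months (adjusted p = 0.0388) and -1.40 against 12 months (adjusted p = 0.0303). The difference from 12 months also passed with array weights (-1.26, adjusted p = 0.0278) and with the mean of both probe sets (-0.997, adjusted p = 0.0447). The second Cyp2d4 probe set was above the floor on 13 of 18 arrays, and its difference of 24 from 4 months was -0.25 (adjusted p = 0.623). At 24 months 2 of 3 controls lay below the floor and the other was at 32. Its deposited means were 38.3 ± 6.99 at 4 and 30.0 ± 2.88 at 24 months (SD, n = 3 each).

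Cyp2a2 had 3073, 2923 and 3332 in controls of 4 months, 2791, 2864 and 2829 at 12 months and 1576, 2164 and 2300 at 24 months. The ages did not overlap and stood in descending order, with means of 3110 ± 207, 2828 ± 36.5 and 2014 ± 385 (SD, n = 3 each). At 24 against 12 months the log2 fold change was -0.51 (adjusted p = 0.299), and at 12 against 4 months -0.13 (adjusted p = 0.969, 0% of genes passing, 335 at an unadjusted p under 0.05). With 3 rats against 3, an exact permutation test cannot go below 0.1, the value it gave here for each of these differences. The share of all genes whose ages separated in this way was not taken.

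Cyp2a1 had 1868, 2035 and 2056 in controls of 4 months, 1810, 2337 and 1261 at 12 and 1183, 1636 and 2133 at 24 months, and all ages overlapped. Means were 1986 ± 103, 1802 ± 538 and 1651 ± 475 (SD, n = 3 each), with a spread that was wider at 12 and 24 months than at 4 months. The difference was -0.12 at 24 against 12 months (adjusted p = 0.848) and -0.18 at 12 against 4 months (adjusted p = 0.966).

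In these controls at 24 against 4 months, 0.245% of the 8584 genes tested passed and 1000 had an unadjusted p under 0.05. Among the listed genes, 0 of 14 tested Cyp2 family genes and 0 of 10 male-dominant genes passed, with 4 and 5 at an unadjusted p under 0.05. The medians were -0.11 and -0.53, and all 10 male-dominant values were negative, Cyp2c11 with -0.79 (adjusted p = 0.176). Of 6 tested female-dominant genes 1 passed, Cyp3a9, a steroid hydroxylase, which fell by 1.68 (adjusted p = 0.0238); the count was 0 in 7 of 18 alternatives, among them the loss of any 4-month control or of the first control of 24 months. Macrophage markers summed to 3752 to 7460 at 24 and 1932 to 2414 at 4 months, and 2 of 8 passed as higher, as did 1 of 2 lymphocyte and plasma cell markers.

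Toluene moved none of the 3 genes past the test at any age. At 24 months Cyp2a2 had 2444, 2621 and 2784 in dosed rats, against 1576, 2164 and 2300 in controls, and Cyp2d4 had 172, 181 and 190 in dosed rats, against 121, 158 and 108 in controls. Dosed rats lay above controls without overlap for both genes, with an exact permutation p of 0.1 for each, the smallest possible. How many of all genes separated in this way was not counted. The log2 fold changes were 0.39 for Cyp2a2 (SE 0.21, 95% interval -0.06 to 0.85, adjusted p = 0.514) and 0.51 for Cyp2d4 (SE 0.23, 95% interval 0.02 to 1.00, adjusted p = 0.432), where 0.0582% of genes passed. Cyp2a1 had 2240, 2289 and 1553 in dosed rats, against 1183, 1636 and 2133 in controls, which overlap (log2 fold change 0.32, adjusted p = 0.642).

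At 12 months Cyp2d4 had 280, 226 and 155 in dosed rats, against 223, 314 and 393 in controls (log2 fold change -0.50, SE 0.23, adjusted p = 0.922, 0.0349% of genes passing). Cyp2a2 had 3212, 3152 and 1577 in dosed rats, against 2791, 2864 and 2829 in controls, so a single dosed rat, at 1577, carried the lower mean (log2 fold change -0.17, adjusted p = 0.948). Without that rat the value was 0.17. Cyp2a1 had 2387, 2296 and 1697 in dosed rats, against 1810, 2337 and 1261 in controls (log2 fold change 0.27, adjusted p = 0.934).

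At 4 months the groups lay closest. Cyp2a1 had 2000, 1991 and 2071 in dosed rats, against 1868, 2035 and 2056 in controls. Cyp2a2 had 3085, 3531 and 3527 in dosed rats, against 3073, 2923 and 3332 in controls. Cyp2d4 had 223, 338 and 273 in dosed rats, against 270, 236 and 243 in controls. All 3 pairs of groups overlapped, with log2 fold changes of 0.03, 0.12 and 0.14 for Cyp2a1, Cyp2a2 and Cyp2d4 (adjusted p = 1 for each, 0.0233% of genes passing).

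Averaged over the 3 ages, the toluene effect was 0.20 for Cyp2a1 (95% interval -0.08 to 0.49, adjusted p = 0.932), 0.12 for Cyp2a2 (-0.15 to 0.38, adjusted p = 0.932) and 0.05 for Cyp2d4 (-0.23 to 0.33, adjusted p = 0.969), where 0.0699% of genes passed. The effect at 24 minus that at 4 months was 0.29, 0.27 and 0.37 (adjusted p = 0.982 for each, 0.0116% of genes passing), and that at 12 minus that at 4 months 0.24, -0.29 and -0.63 (adjusted p = 0.976 for each, 0% passing, 270 genes at an unadjusted p under 0.05), for Cyp2a1, Cyp2a2 and Cyp2d4 in that order. No near relative and none of 14 other Cyp2 genes passed in the average, and 0 of them had an unadjusted p under 0.05. Of the 8584 genes tested, 450 had such a p, so few were to be expected in so short a list. Alas1, which starts haem synthesis, rose by 1.54 on the log2 scale (SE 0.14, adjusted p = 0.000115).

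**Figure D5:**
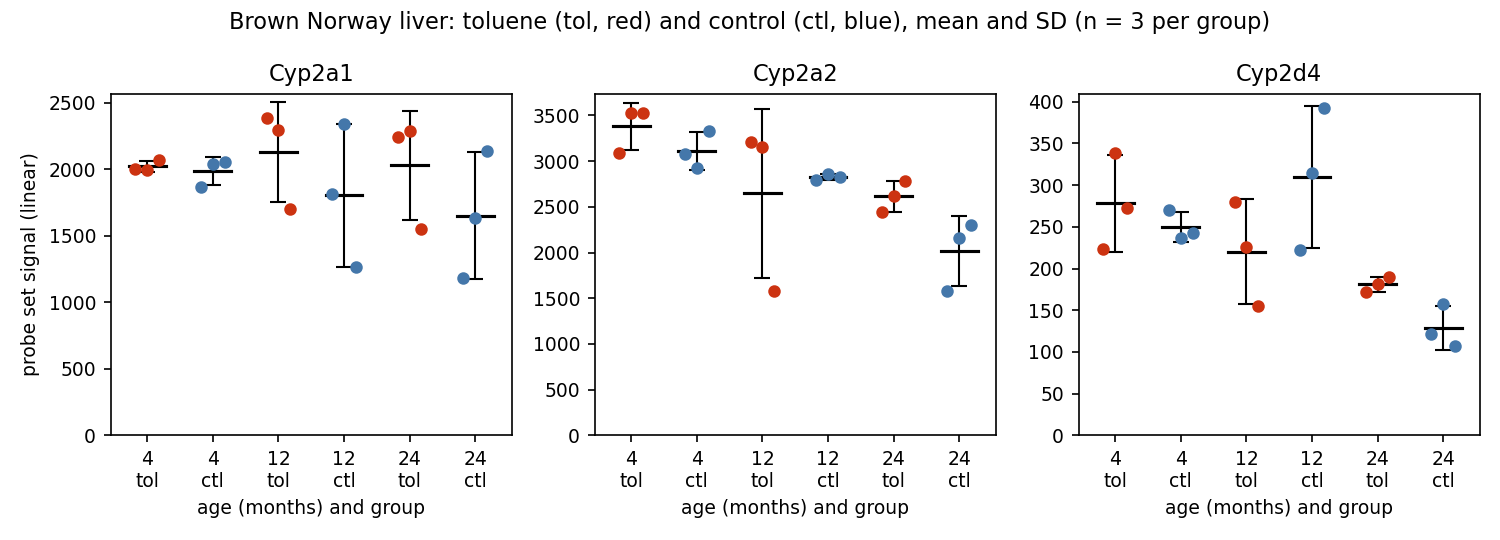
Linear probe set signal (y axis, arbitrary units) of Cyp2a1, Cyp2a2 and Cyp2d4 in Brown Norway rats by age in months and group (x axis; tol, toluene, red; ctl, control, blue), 1 point per rat, with the mean and SD of 3 rats. Control signals of Cyp2a2 and Cyp2d4 at 24 months lie below those of younger controls and of dosed rats of the same age, with Cyp2d4 at 108 to 158.

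Within the dosed rats, the age differences had the same sign for Cyp2a2 and Cyp2d4 at 24 against 4 months, at -0.37 (adjusted p = 1) and -0.60 (adjusted p = 0.747), and Cyp2a1 had -0.02 (adjusted p = 1), with 0.268% of genes passing. The dosed groups of 24 and 4 months did not overlap for Cyp2a2 or Cyp2d4, with an exact permutation p of 0.1 for each, the smallest possible. How many of all genes separated in this way was not counted. At 24 against 12 months the dosed rats had -0.07, 0.05 and -0.24 for Cyp2a1, Cyp2a2 and Cyp2d4 (adjusted p = 1 for each, 0.0932% of genes passing). At 12 against 4 months they had 0.058, -0.42 and -0.36 (adjusted p = 1 for each, 0% of genes passing, 211 at an unadjusted p under 0.05). In the order of mean log2 signal over all 6 Brown Norway groups, the 24-month controls were lowest for each of the 3 genes. The highest were the dosed rats of 12 months for Cyp2a1, the dosed rats of 4 months for Cyp2a2 and the controls of 12 months for Cyp2d4. No contrast of age or dose among these groups passed in the fit described, while Cyp2d4 in dosed rats at 24 against 4 months passed with array weights (-0.63, adjusted p = 0.0443).

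The strains were compared through their age effects, as Brown Norway controls at 24 against 4 months minus F344 rats at 24 against 6 months. The effect on Cyp2a2 was higher in Brown Norway rats by 3.50 on the log2 scale (SE 0.56, adjusted p = 2.89e-07), that on Cyp2a1 was lower by 1.17 (log2 difference -1.17, SE 0.33, adjusted p = 0.0332), and 1.27% of the 7956 genes compared passed. For Cyp2d4 the difference was 0.14 (SE 0.32, 95% interval -0.48 to 0.76, adjusted p = 0.942), an interval that spans 0. With the second Cyp2d4 probe set it was 0.93 (adjusted p = 0.0155), so the pair of probe sets gave different answers. The second lay near the floor in Brown Norway controls, with deposited means of 38.3 at 4 and 30.0 at 24 months. In F344 rats its means were 90.2 at 6 and 38.9 at 24 months. Why the probe sets differ was not tested, and a strain difference for Cyp2d4 was not settled. The Cyp2a1 difference had an adjusted p between 0.0564 and 0.165 when any of 9 arrays was left out. The z test used here takes the standard errors as known, which makes p-values too small with few arrays. The Cyp2a1 call and the share of genes passing are therefore uncertain. Strain cannot be told apart here from the age of the young group, the supplier and housing, and the RNA quality of the arrays.

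Genes most like each member were sought by Pearson r over the arrays of a strain, which share age and array quality with them. In F344 rats (16 arrays, 9205 other genes) the 5 most like Cyp2a2 were Spink1l (r = 0.98), Cyp2c13 (0.97), Cdh17 (0.97), Cyp2b3 (0.96) and Sult1e1 (0.96), and the 3 most opposed were A1bg (-0.98), Hdc (-0.97) and Spsb4 (-0.96). For Cyp2a1 they were Tm7sf3 and Plbd1 (0.96 each), Septin2, Nae1 and Herc6 (0.92 to 0.93), opposed by Fahd1 (-0.95), Chpt1 (-0.93) and Hsd17b12 (-0.92). For Cyp2d4 they were Rab5if (0.94), Nudt12, Timm50, Apon and Lmo7 (0.92 to 0.93), opposed by Ufsp2 (-0.95), Naca (-0.93) and Itga1 (-0.92). Cyp2b3 and Cyp2c13 are Cyp2 family members that fell with Cyp2a2, Cyp2b3 by 1.87-fold at 24 against 6 months (adjusted p = 0.00832). A1bg passed the filter on low signals only through the 24-month rats, so its negative r with Cyp2a2 was largely set in advance.

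Other genes led in Brown Norway rats (18 arrays, 8583 other genes). The 5 most like Cyp2a2 there were Nrep (0.95), Ndrg2 (0.94), and Slc46a3, Bphl and Mab21l3 (0.91 each), opposed by Umps (-0.94), Rps6 (-0.92) and Syne4 (-0.91). For Cyp2d4 they were Ivd (0.91), Oat (0.89), Kynu (0.89), Rnf167 (0.88) and Mro (0.88), opposed by Eloc (-0.88), Hpf1 (-0.88) and Sub1 (-0.86). Ivd, Oat and Kynu encode enzymes of leucine, ornithine and tryptophan breakdown. For Cyp2a1 the likeness was weaker, with Slc25a13 (0.84), Nubpl (0.81), Eva1a (0.80), Gsta1 (0.80) and Znrf3 (0.79), opposed by Mob3a (-0.82), Zfta (-0.81) and Cct4 (-0.80). Among the members themselves, Cyp2a2 and Cyp2d4 had r = 0.75, Cyp2a1 and Cyp2a2 r = 0.52, and Cyp2a1 and Cyp2d4 r = 0.16 over these arrays.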

How the data were processed

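Liver RNA of 34 male rats was measured on Affymetrix arrays, 1 per animal. Each deposited value is a probe set intensity on a linear scale. The submitters' processing notes name MAS5 and RMA without version, role or order. Strains had different median signals and were analysed apart. Each gene was represented by its single-gene probe set of highest mean signal in the strain. Of 24946 probe sets, 17589 have 1 gene symbol, 393 several and 6964 none. Per-sample columns not used numbered 0. Signals were floored at 32 and log2 was taken. Testing took genes over the floor on 4 or more F344 arrays or 3 or more Brown Norway arrays.

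Within a strain, group means were fitted with limma 3.58.1 (R 4.3.3), and p-values were adjusted by Benjamini-Hochberg over all genes tested. The threshold for passing was an adjusted p of 0.05. The strain difference is a z test from both estimates and their standard errors. Single differences of 2 groups also had an exact permutation test, two-sided. The pipeline was tested on simulated data. Replicates were numbered in record order and never paired.

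The members, lists and tests were chosen with earlier results of these data known. The genes named are the 3 members, their measured relatives, up to 4 members of smallest p of each list in a comparison, and the 5 most like and 3 most opposed genes by Pearson r. Cyp2e1, Por, Stat5b, the female-dominant genes named as lower or not passing in F344 rats, and the genes named in single old rats were chosen after their values were seen. Promoter windows are RefSeq's, on GRCr8. Alternatives were other floors, filters, scalings, probe sets, array weights, a variance trend, the compared groups alone, the GAPDH ratio as a covariate, arrays above a ratio of 2.5 left out, dosed in place of control rats, and each array left out. The slope on the GAPDH ratio within age was added after seeing the data.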

Additional observations from a re-analysis of the deposited data

Results flagged for a closer look

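Of 12 F344 groups of 4 rats (3 genes at 4 ages), 2 held an array far from the other 3 by Dixon's test, which flags about 1 group in 20 by chance. At 18 months the lowest Cyp2a1 array had 1566, with a gap to its neighbour of 0.904 of the group's range, and it was the array with a GAPDH ratio of 5.31. At 11 months the highest Cyp2a2 array had 4178, with a gap of 0.848 of the range, and it was the array with a GAPDH ratio of 7.33. Within an age, the log2 change per doubling of that ratio was -0.41 for Cyp2a1 and 0.31 for Cyp2a2.

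The effect of old age differed past the test between the strains for 2 of the 3 genes, where 1.27% of the 7956 genes compared did. Brown Norway minus F344, the log2 difference was 3.50 for Cyp2a2 and -1.17 for Cyp2a1. The Cyp2a1 difference lost its call in 11 of 26 alternatives, and the z test behind it gives p-values that are too small with few arrays. Strain cannot be told apart here from the age of the young group, the supplier and housing, or RNA quality.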

How the results depend on the processing

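Over 57 results for the 3 genes and 1150 recomputed values, 1088 kept their direction and side of the threshold, 24 lost the call, 9 gained it and 29 turned sign, all of the last from values that had not passed. No alternative ended the Cyp2a2 and Cyp2d4 falls at 24 against 6 or 11 months in F344 rats or the strain difference for Cyp2a2. The cause of the moves below was not tested. Cyp2a1 at 24 against 6 months was 0.86 with no filter (adjusted p = 0.0706) and with a floor of 8 (adjusted p = 0.0540), and 0.71 to 0.94 with 1 array left out. Cyp2a2 at 24 against 18 months was -3.65 in the compared groups alone (adjusted p = 0.0539). Cyp2d4 at 24 against 18 months passed with array weights (-0.68) and the GAPDH covariate (-0.69), and was -0.94 to -0.62 with 1 array left out. Cyp2d4 in Brown Norway controls at 24 against 4 months ranged over -1.13 to -0.85 with 1 array left out. The strain difference was -1.17 for Cyp2a1 with no filter (adjusted p = 0.0532) and a floor of 8 (adjusted p = 0.0637), and -1.37 to -0.95 with 1 array left out. For Cyp2d4 it was 0.93 and passed with the other probe set, which lay near the floor in Brown Norway controls. It was -0.013 with the covariate and -0.016 to 0.31 with 1 array left out. Values near 0 turned sign as follows. Cyp2a1 at 11 against 6 months was 0.017 without arrays of GAPDH ratio above 2.5 and -0.27 to 0.12 with 1 array left out. With dosed in place of control rats, Cyp2a2 at 24 against 12 months was 0.05, and at 12 against 4 months Cyp2a1 was 0.058 and Cyp2d4 -0.36. With array weights, Cyp2a1 at 12 against 4 months was 0.044 in controls, and Cyp2a2 at 24 against 12 months was -0.12 in dosed rats. The mean toluene effect on Cyp2d4 was -0.17 with the other probe set and -0.059 with the mean of both, and its effect at 24 minus 4 months was -0.012 with the other probe set. With 1 array left out, Cyp2a1 ranged over -0.36 to 0.10 (24 against 12 months) and -0.39 to 0.051 (12 against 4) in controls. In dosed rats it ranged over -0.12 to 0.16 (24 against 4), -0.23 to 0.11 (24 against 12) and -0.033 to 0.21 (12 against 4), and Cyp2a2 over -0.28 to 0.23 (24 against 12). Toluene effects ranged over -0.018 to 0.051 for Cyp2a1 and -0.016 to 0.28 for Cyp2d4 at 4 months, -0.34 to 0.17 for Cyp2a2 at 12 months, -0.023 to 0.13 for Cyp2d4 on average, and -0.46 to 0.050 for Cyp2a2 at 12 minus 4 months. Over all genes, calls at 24 against 6 months in F344 rats ranged over 392 to 1153 around 681, at 24 against 11 months over 183 to 1021 around 453, at 24 against 18 months over 65 to 629 around 162, and at 24 against 4 months in Brown Norway controls over 0 to 137 around 21. At 24 against 6 months in F344 rats, list counts ranged over 0 to 3 redox and haem genes (2 as reported), 1 to 4 regulators (2), 3 to 6 other Cyp2 genes (5), 1 to 2 relatives (1), 5 to 8 female-dominant (8), 9 to 10 male-dominant (10) and 5 to 7 steroid-metabolising genes (6). No paired analysis was possible because the labels give each animal its own number and no number shared between groups. With 3 or 4 arrays per group, small differences cannot be told from none.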
